A study of Homo sapiens with 73 samples.

Results

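Drug-free cultures of the Ewing sarcoma cell line CHLA-9 were compared between sampling time point 8 and time point 1. CHLA-9 carries the EWSR1-FLI1 fusion gene, and the study split one treatment-naive stock into 10 lineages that were kept apart and sampled up to time point 10. The members were the 6 RNA-seq libraries of lineages R8, R9 and R10 at these time points, out of 73 libraries in all, chosen by their labels and paired by lineage number. These 3 lineages received DMSO, the solvent control, at every time point and were labelled with the same time point numbers as the treated lineages. Lineages R1 to R7 were instead exposed for 5 days at a time to vincristine, doxorubicin and cyclophosphamide, or to etoposide and cyclophosphamide, in alternation, each at the dose set for a 70% effect. Cells were washed and regrown in medium without drug before each sampling. The days that passed between time points 1 and 8 are not stated in the labels used here. All lineages derive from 1 line, so the spread below is that of 3 parallel cultures and not of different tumours.

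Ewing sarcoma is driven by a fusion of the RNA-binding protein EWSR1 to the ETS transcription factor FLI1. The fusion protein switches on a set of genes at ETS motifs and keeps mesenchymal genes low, and cells with less fusion activity are known to show more adhesion, matrix and contractile gene expression. Cultured lines are also known to diverge with passage, because clones compete and because density, attachment and nutrients act on gene expression. Comparing untreated lineages with their own first sampling measures the change that occurs with no drug at all.

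Values were quantile-normalized counts, here called values, and were analysed as log2(value + 1). Every DMSO library and the parental library had the same total of 13582508 and the same largest value of 114407, so sequencing depth cannot be read from them. The lowest value of a library, 0.0144 to 0.0262 at time point 1, is the floor of the scale, where 14266 to 15476 genes of each of the 6 libraries lie. A pair of the 6 libraries stood apart. R8 at time point 1 had 1229 for CDKN1A, which encodes the cell cycle inhibitor p21, against 53 in R9 and 71.2 in R10. R9 at time point 8 had 10116 for CDKN1A, against 935 in R8 and 1481 in R10. For the genes described, calls that were lost without either library are given with their adjusted p without it. This does not cover FN1, SPARC, TIMP3, COL6A2, COL4A1, CSF1 and NFKB1, which are only listed as called below. Of the 108 named genes that were called, 30 stayed called without R9 at time point 8 and 78 without R8 at time point 1 (limma). Outside the 6 libraries, R9 at time point 2 also differed, with 1780 for MKI67 against 6417 in R8 and 6238 in R10. With time point 2 in place of time point 1, 27 of the 108 named genes that were called lost their call (limma). The summed values of 10 Ewing sarcoma markers were 113890 to 117890 at time point 1 and 85133 to 130570 at time point 8. CCND1 and FCGRT had the largest values in this sum, 25510 to 59520, so it says little about the other members. LIPI fell from 2695, 2672 and 2580 to 1449, 760 and 1566 in R8, R9 and R10. STEAP1 fell from 1151, 1146 and 1187 to 806, 433 and 909. NR0B1 and FLI1 were higher at time point 8 in each lineage. CD99, a defining surface marker of the tumour, was listed at only 0.00349 to 2.31 in the 6 libraries and was not tested. The gene is annotated on both X and Y, and how reads that fit both copies were counted is not stated, so its value may not measure its expression. EWSR1 was between 2542 and 2829 and FLI1 between 1028 and 1344 in all 6. In bulk RNA, fewer cells of a kind and less RNA per cell cannot be told apart.

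Of 14565 genes with a mean of at least 10, 2027 passed a false discovery rate of 0.05 (13.9%, limma). Of these, 865 (5.94%) were higher and 1162 (7.98%) lower at time point 8, and 4655 had an unadjusted p under 0.05. The median log2 difference was 1.04 for the higher genes, -0.94 for the lower genes and -0.04 for all genes tested. Rises were larger than falls at the extreme, with 257 genes above a log2 difference of 2 and 56 below -2. The 3 libraries of time point 8 all lay above those of time point 1 for 808 of the 865 higher genes, against 2328 of all genes tested (16%). They all lay below for 1139 of the 1162 lower genes, against 2938 of all genes tested (20.2%). R9 had the largest change of the 3 lineages in 436 of the 865 higher genes. Without R9 at time point 8 the count was 661 (272 higher and 389 lower), and without R8 at time point 1 it was 1870. Leaving out a whole lineage gave 867 without R8, 386 without R9 and 4 without R10. The signs held for all 2027 genes in each of these 5 fits. This was nearly fixed by the calls themselves, since 857 of the 865 higher and 1153 of the 1162 lower genes had the same sign in every lineage. The spread was estimated over all 23 DMSO libraries, and from the 6 libraries alone 2 genes passed (3328 at an unadjusted p under 0.05).

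The lineages did not move equally far. The root mean square log2 difference between time points 8 and 1 came to 0.932 for R8, 1.28 for R9 and 0.902 for R10, a mean of 1.04 ± 0.209 (SD, n = 3). Between time points 2 and 1 it was 0.554 ± 0.0865 (SD, n = 3), lower than the later distance in each lineage. With 3 pairs the smallest p of a two-sided exact sign permutation test is 0.25, so no test was made. At time point 1, lineages R9 and R10 were 0.301 apart, and R8 was 0.613 from R9 and 0.607 from R10. At time point 8 the 3 distances between lineages were 0.63, 0.988 and 1.09, each larger than its value at time point 1. The distance from the parental library was also larger at time point 8 in each lineage, going from between 0.715 and 0.773 at time point 1 to between 0.799 and 1.19 at time point 8. In 5 treated lineages with both samplings, the distance between time points 8 and 1 was 0.895 to 1.11, a range that overlapped that of the DMSO lineages.

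The same lineages were sampled again at time points 2 and 9, in libraries that the contrast of time points 8 and 1 does not use. All 4 time points belong to the same cultures and share 1 estimate of the spread, so these are repeat samplings and not further lineages. Time point 9 against 2 called 2274 genes (15.6%, limma), 1080 higher (7.42%) and 1194 lower (8.2%). Of the 865 genes higher at time point 8, 854 (98.7%) were also higher at time point 9 than at 2, and 522 (60.3%) were called higher there. Among all genes tested, 44.3% were higher. Of the 1162 lower genes, 1136 (97.8%) were lower at time point 9 and 428 (36.8%) were called lower, beside 55.7% lower among all genes. No gene was called in opposite directions in both. R9 and R10 had high CDKN1A at time point 9 (9436 and 2416, against 1210 in R8), and without these 2 libraries the count fell to 42.

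The change was placed in time with all 23 DMSO libraries. For each library the median difference from the mean of time point 1 was taken over the 865 higher and the 1162 lower genes. The values at time points 1 and 8 follow from how these genes were called, and only the other time points carry information. At time point 2 the medians of the higher genes were -0.04 to 0.07, no further from 0 than the spread among the time point 1 libraries themselves. At time point 4 they were already 0.91 in R8 and 0.61 in R9, and at time point 6 they were 0.82 to 0.83 in all 3 lineages. At time points 9 and 10 they were between 0.61 and 1.10. The lower genes were at -0.74 in R8 and -0.49 in R9 at time point 4. At time point 2 they were at 0.04 in R8 but at -0.18 in R9 and -0.13 in R10. The latter 2 values lay outside the -0.04 to 0.02 of the time point 1 libraries. R9 at time point 5 was the library closest to the early level, at 0.36 for the higher and -0.30 for the lower genes. For the higher genes, the largest step between neighbouring samplings lay between time points 2 and 4 in R8 and R9 and between 2 and 5 in R10. For the lower genes this held in R8 and R10, while R9 went from -0.18 to -0.49 between time points 2 and 4 and from -0.30 to -0.76 between 5 and 6. No DMSO library of time point 3, nor of R10 at time point 4, was analysed here. The parental library was not at the level of time point 1 either, with a median of 0.49 for the higher and -0.30 for the lower genes. The labels name no extraction or sequencing batch, so anything else that differed between the early and the later samplings cannot be told apart from time in culture.

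**Figure D1:**
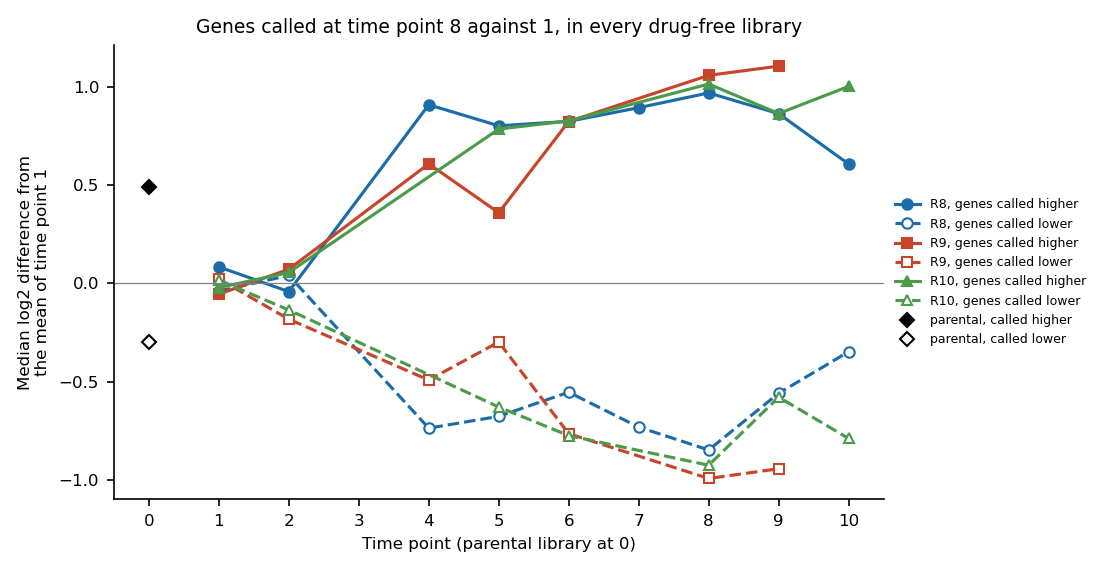
Median log2 difference from the time point 1 mean over the genes called higher (filled symbols, solid lines) and lower (open symbols, dashed lines), for each drug-free library by time point, with the single parental library at 0. The medians of the higher genes are near 0 at time points 1 and 2 and between 0.36 and 1.10 from time point 4 onward; time points 1 and 8 were used to choose the genes.

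The treated lineages passed through the same genes. Their medians for the 865 higher genes, each against the treated mean of time point 1, were -0.14 to 0.44 at time point 3, 0.08 to 0.95 at time point 4 and 0.64 to 0.94 at time point 8.

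The 12 largest rises included genes of secretion, adhesion and signalling, and 5 of them stayed called without R9 at time point 8. ADAM19, a membrane metalloproteinase on chromosome 5 (chr5:157395534-157575775, GRCh38, minus strand), was the most even of these. Its values were 1.34 in R8, 1.19 in R9 and 0.0144 in R10 at time point 1, and 81.9, 86.6 and 104 at time point 8. The lineages were close together at both ends and did not overlap. The log2 difference was 5.72 ± 0.85 (SE, adjusted p = 0.00288, limma), and ADAM19 was 1 of the 4 genes still called when R10 was left out altogether. CREB5, a basic leucine zipper transcription factor on chromosome 7 (chr7:28299321-28825894, plus strand), was 9.47, 1.19 and 4.27 at time point 1 and 438, 581 and 270.2 at time point 8. Its log2 difference was 6.38 ± 0.88 (SE, adjusted p = 0.00259), and R9 was the lowest lineage at the start and the highest at the end. ANXA5, a calcium-dependent phospholipid-binding annexin on chromosome 4 (chr4:121667955-121697113, minus strand), was 11.3, 2.34 and 1.62 at time point 1 and 134, 1097 and 188 at time point 8. All 3 lineages rose, R9 by the most, and the log2 difference was 6.00 ± 1.19 (SE, adjusted p = 0.00861).

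PRKD1, a serine-threonine kinase of the protein kinase D family, was at the floor in all 3 libraries of time point 1 and at 18.6, 193 and 44.8 at time point 8 (adjusted p = 0.00293). EGFR, the epidermal growth factor receptor, was at the floor at time point 1 and at 163 in R8, 7.11 in R9 and 134 in R10 at time point 8 (adjusted p = 0.0231). R9 changed least of the 3 lineages for EGFR. NPR3, the natriuretic peptide clearance receptor, went from the floor to 27.8 in R8, 4371 in R9 and 113 in R10 (adjusted p = 0.0414), so its levels at time point 8 covered more than 2 orders of magnitude. CXCL8, the chemokine interleukin-8, went from the floor to 15.1, 768 and 13.8 (adjusted p = 0.0251). MMP1, an interstitial collagenase, was at 0.0262, 0.0167 and 1.10 at time point 1 and at 51.4, 1159 and 33.7 at time point 8. No fold is given for the genes at the floor in every time point 1 library.

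PARP8, an ADP-ribosyltransferase family member, HMGA2, GDF10, a TGF-beta superfamily ligand, and ANGPTL2, a secreted angiopoietin-like protein, completed the 12. HMGA2, an architectural chromatin protein of fetal and tumour cells, was 18.6, 577 and 73.7 at time point 8 and at most 2.52 at time point 1. In the parental library ADAM19 was 39.4, CREB5 27.5, ANXA5 54.6, PRKD1 12.8, HMGA2 12.8 and GDF10 5.79, each above every time point 1 library. EGFR, NPR3, CXCL8 and MMP1 were at the floor there, PARP8 was 1.30 and ANGPTL2 0.75. R9 had the largest change in 10 of the 12. With R9 at time point 8 left out, the adjusted p was 0.0135 for ADAM19, 0.0134 for CREB5, 0.0414 for ANXA5, 0.0177 for PRKD1 and 0.0455 for EGFR. For the other 7 genes it was then 0.0563 (PARP8) to 0.176 (NPR3), and the estimates stayed positive. Without R8 at time point 1, NPR3 (0.0539), EGFR (0.0719) and GDF10 (0.0562) missed the threshold. With a pseudocount of 10, NPR3 (0.0804), HMGA2 (0.069), CXCL8 (0.0632), EGFR (0.0605) and ANGPTL2 (0.0568) missed it, and ADAM19 differed by 3.21. EGFR also missed with no lineage block (0.0647). With time point 2 in place of time point 1, NPR3 (0.0506) and GDF10 (0.0527) were not called. These 12 were picked for their size in this contrast, and time point 9 against 2 gives a second reading: all 12 were called higher there (7.42% of all genes tested), and the log2 differences of the 8 that were above the floor at time point 1 ran from 3.71 for ADAM19 to 7.54 for ANXA5.

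**Figure D2:**
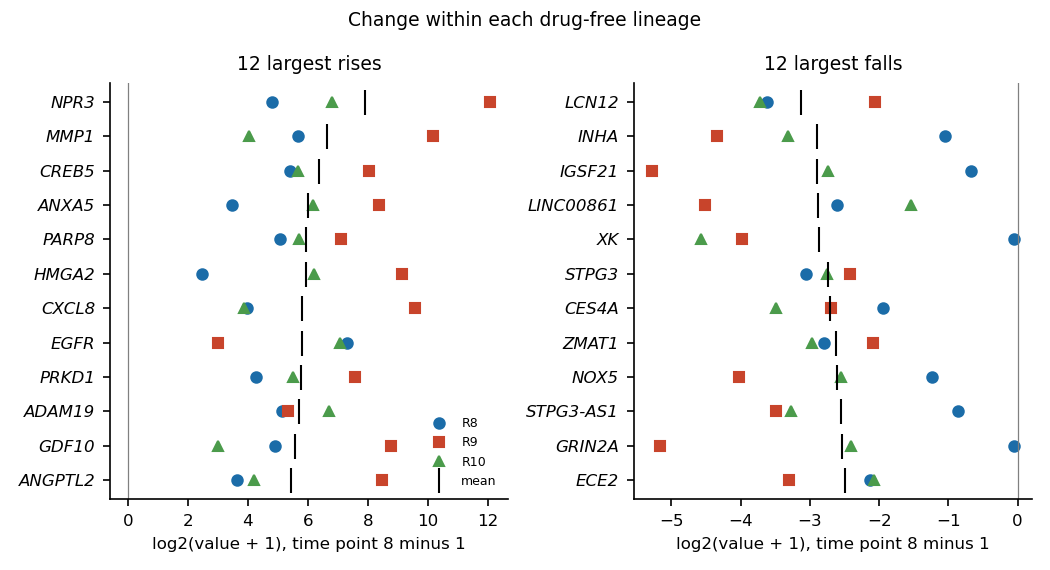
Change of log2(value + 1) from time point 1 to 8 in each drug-free lineage for the 12 largest rises (left) and the 12 largest falls (right), with the mean as a black tick. All changes share a sign within a panel, and R9 has the largest rise in 10 of the 12 genes on the left. For NPR3, CXCL8, EGFR and PRKD1 the size depends on the pseudocount because time point 1 is at the floor. Other rises from low values depend on it too. With a pseudocount of 10 the difference goes from 5.72 to 3.21 for ADAM19, 5.94 to 3.38 for HMGA2 and 6.62 to 3.82 for MMP1.

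Promoter letters were read for the genes with large rises. The motif TGANTCA, read by AP-1 factors such as FOS and JUN dimers and identical on both strands apart from its middle base, was sought in the 250 bases before each RefSeq gene start. It was present in 458 of the 11374 tested genes with a promoter entry (4.03%). Of the 45 named genes other than ESRP1 with a rise above a log2 difference of 2, 34 had an entry and 3 held the motif: CXCL8, POSTN and FAS. Of all 257 strongly rising genes, 181 had an entry. In both sets the genes with an entry were too small a share for a comparison of motif shares to count. The stretches around the motif of CXCL8 and POSTN are shown as examples, and that of FAS is not shown. The motif is in capitals (RefSeq, GRCh38.p14, read 5′ to 3′ on the gene's strand). The stretch of CXCL8 lies at chr4:73740407-73740463 on the plus strand and that of POSTN at chr13:37598957-37599013 on the minus strand.
CXCL8: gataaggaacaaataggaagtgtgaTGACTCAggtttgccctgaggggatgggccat
POSTN: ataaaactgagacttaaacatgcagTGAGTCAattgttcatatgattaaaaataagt
A match of letters is a description of the window and shows no binding.

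The 12 largest falls were smaller, between -2.50 and -3.13 on the log2 scale, and 5 stayed called without R9 at time point 8. LCN12, a lipocalin on chromosome 9 (chr9:136949551-136955497, plus strand), fell from 54.8 in R8, 62.9 in R9 and 64.6 in R10 to 3.52, 14.3 and 4.00. Its log2 difference was -3.13 ± 0.56 (SE, adjusted p = 0.00569, limma), with R9 the least changed. ZMAT1, a zinc finger gene on chromosome X (chrX:101882288-101932031, minus strand), fell from 242, 456 and 542 to 33.9, 106 and 68.1, a log2 difference of -2.62 ± 0.41 (SE, adjusted p = 0.00293). CES4A, a carboxylesterase, fell from 186, 240.2 and 211 to 47.8, 36.4 and 17.8 (adjusted p = 0.00418). INHA, the inhibin alpha subunit, fell from 39.6, 113 and 89.2 to 18.6, 4.66 and 8.03 (adjusted p = 0.00808). For these 4 genes the 2 groups did not overlap.

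In some of the remaining falls, 1 lineage hardly took part. GRIN2A, an NMDA receptor subunit, was 446, 992 and 985 at time point 1 and 429.8 in R8, 26.8 in R9 and 186 in R10 at time point 8, with R8 almost level. XK, a membrane protein of the Kell blood group complex, was 19.4 and 18.6 in R8 but went from 41.9 to 1.71 in R9 and from 50.7 to 1.17 in R10. IGSF21, LINC00861, NOX5 and ECE2 were also among the 12, as were STPG3 and its antisense gene STPG3-AS1, whose reads cannot be told apart because the strand setting of the counting is not stated. When R9 at time point 8 was left out, the adjusted p was 0.0135 for LCN12, 0.0122 for ZMAT1, 0.0141 for CES4A, 0.0388 for INHA and 0.0461 for STPG3, and 0.0515 (NOX5) to 0.182 (GRIN2A) for the others. Without R8 at time point 1, LINC00861 (0.0621) and STPG3 (0.05) did not pass. At time point 9 against 2, 7 of the 12 were called lower (8.2% of all genes tested), and all 12 estimates were negative, from -1.02 to -3.03.

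**Figure D3:**
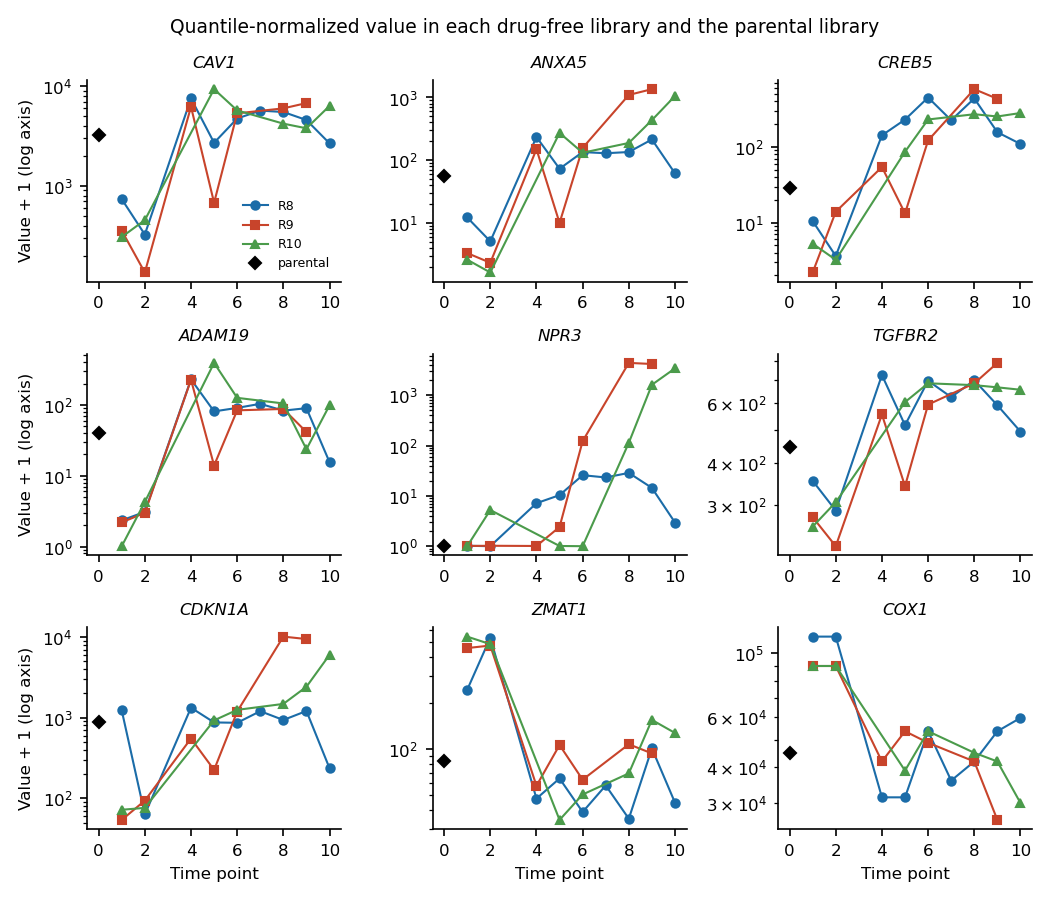
Value + 1 on a log axis at every time point in lineages R8, R9 and R10 and in the parental library (diamond at 0) for 9 genes. CAV1, ANXA5, CREB5, ADAM19 and TGFBR2 step up and ZMAT1 and COX1 step down between time points 2 and 4 or 5. In R9 at time point 5, CAV1 (676), ANXA5 (9.08), CREB5 (12.3) and ADAM19 (12.9) are low again. NPR3 and CDKN1A reach their highest values in R9 and R10 at time points 8 to 10.

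Genes that EWSR1-FLI1 is known to repress formed the first group described. Of 23 tested members, 6 were called higher and 0 lower (5.94% and 7.98% of all genes tested), with a median log2 difference of 1.23 against -0.04 for all genes. The same shares of all genes stand beside each list count of time point 8 against 1 below. TGFBR2, the type II TGF-beta receptor and a well-known target of repression by the fusion (chr3:30606502-30694142, plus strand), rose from 352, 275 and 258 to 698, 684 and 676. Its log2 difference was 1.23 ± 0.19 (SE, adjusted p = 0.00293), and it was 226 to 305 at time point 2 and 339.9 to 786 in every DMSO library from time point 4 onward. CCN2, a matricellular protein induced by YAP and TGF-beta, rose from 206, 58.2 and 45.3 to 1163, 503 and 1546 (3.55 ± 0.77, adjusted p = 0.0118). TNC, the matrix protein tenascin C, rose from 515, 51.1 and 79.2 to 2505, 8076 and 1236, with R8 already high at time point 1. IER3, ANXA1 and FN1 were the other called members. Without R9 at time point 8, TGFBR2 (0.0149), CCN2 (0.0381) and IER3 (0.0381) stayed called, and ANXA1 (0.0632) and TNC (0.111) did not.

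Genes that the fusion is known to activate did not move one way. Of 33 tested, 2 were called higher and 5 lower, with a median of -0.08. CAV1, the caveolar coat protein caveolin-1 (chr7:116524785-116561184, plus strand), rose from 735, 355 and 306 to 5500, 5982 and 4203, a log2 difference of 3.58 ± 0.63 (SE, adjusted p = 0.00569). It ranged from 134 to 453 at time point 2 and was 7523 in R8 and 6210 in R9 at time point 4. In R9 it was down to 676 at time point 5 and was 5330 at time point 6. In the parental library CAV1 was 3200. GLI1, a Hedgehog pathway transcription factor, also rose (1.94 ± 0.60, adjusted p = 0.0436). TERT, the catalytic subunit of telomerase, fell from 150.2, 89.0 and 103 to 26.8, 27.5 and 37.7, and KCNAB3, a potassium channel subunit, fell from 445, 549 and 558 to 137, 209 and 376. TERT was called neither without R9 at time point 8 (0.112) nor without R8 at time point 1 (0.1), and its difference at time point 9 against 2 was -0.19. CAV1 stayed called without either library (0.0278 and 0.00595), whereas GLI1 (0.142) and KCNAB3 (0.0861) missed without R9, and KCNAB3 (0.0506) also without R8 at time point 1. With time point 2 in place of time point 1, TERT (0.508) and KCNAB3 (0.147) were not called, and CAV1 (0.00176) and GLI1 (0.0337) were. The direct target NR0B1 was 2234 to 2959 at time point 1 and 2403 to 4938 at time point 8 (0.35 ± 0.22, adjusted p = 0.283), and CCND1, cyclin D1, was 33718 to 48738 and 38972 to 44969. EWSR1 differed by 0.02 ± 0.09 (adjusted p = 0.915) and FLI1 by 0.14 ± 0.10 (adjusted p = 0.364).

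Mesenchymal and extracellular matrix genes had the most calls of any list by number, 9 of 29 tested higher and 0 lower (5.94% and 7.98% of all genes tested), with a median of 1.06. NF-kB and secreted inflammatory genes had a larger share called, 6 of 10. Medians of the mesenchymal list within the lineages were 0.97 in R8, 0.56 in R9 and 1.33 in R10. POSTN, the matrix protein periostin, was at the floor in R8 and R9 and at 1.10 in R10 at time point 1, and reached 269.8 in R8 but 3.64 in R9 and 25.8 in R10. COL1A1, the alpha-1 chain of type I collagen, rose from 1443, 532 and 614 to 5339, 2808 and 1993 (1.99 ± 0.60, adjusted p = 0.04). FN1, SPARC, TIMP3, COL6A2, COL4A1 and TNC were also called. With R9 at time point 8 left out, the adjusted p was 0.0528 for POSTN (0.108 without R8 at time point 1), 0.146 for COL1A1 (0.0618) and 0.111 for TNC. With no lineage block it was 0.112 for POSTN and 0.0901 for COL1A1, and with a pseudocount of 10 it was 0.0926 for POSTN. At time point 9 against 2 the list had 10 calls higher and 1 lower.

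TGF-beta and BMP pathway genes overlapped this group through TGFBR2, with 4 of 19 tested higher and 0 lower and a median of 0.85. TGFB2, a ligand of that receptor, rose from 56.7, 40.1 and 37.8 to 168, 107 and 182 (1.73 ± 0.37, adjusted p = 0.0113). ID1 and ID3, inhibitors of differentiation that BMP signals induce, were called higher although the groups overlapped. ID1 was 478 in R8 but 48.0 and 69.2 in R9 and R10 at time point 1, and 471, 1239 and 2442 at time point 8, so that R8 was level. ID3 showed the same split, with 1242 in R8 at time point 1 and 931 at time point 8, and was 2045 in the parental library. TGFB2 stayed called without R9 at time point 8 (0.0304), and ID1 (0.0961) and ID3 (0.0924) did not. Contractile and YAP target genes had 6 of 23 higher and 0 lower, with a median of 0.52. WWTR1, which encodes the YAP partner TAZ, rose from 603, 535 and 529 to 894, 862 and 1014 (0.73 ± 0.13, adjusted p = 0.00589), and stayed called without R9 at time point 8 (0.018). LATS2, a kinase that restrains YAP, rose by 0.84 ± 0.22 (adjusted p = 0.0244), and TPM1, a tropomyosin, by 1.44 ± 0.42 (adjusted p = 0.0363), both lost without R9 (0.121 and 0.0643).

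NF-kB and secreted inflammatory genes had 6 of 10 tested higher and 0 lower, with a median of 1.55. PLAU, the urokinase plasminogen activator, went from the floor in all 3 libraries to 42.3, 60.3 and 9.78 (adjusted p = 0.00632). ICAM1, an adhesion molecule for leukocytes, rose from 15.8, 5.22 and 5.71 to 158, 1156 and 51.6 (4.58 ± 1.24, adjusted p = 0.0276). CXCL8, IER3, CSF1 and NFKB1 were the others. R9 was far above R8 and R10 for ICAM1 and CXCL8, and without that library PLAU (0.0336) and IER3 (0.0381) stayed called while ICAM1 (0.138) and CXCL8 (0.129) did not.

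Immediate early genes had 5 of 24 higher and 0 lower, with a median of 0.53. NR4A2, an orphan nuclear receptor, rose from 5.00, 1.78 and 1.10 to 26.0, 261 and 64.0 (4.56 ± 1.11, adjusted p = 0.019). DUSP5, an ERK phosphatase, rose from 22.3, 12.1 and 14.7 to 126, 634 and 123 (3.68 ± 1.03, adjusted p = 0.0314). Genes of the ATF4 and unfolded protein response had 4 of 33 higher and 0 lower, with a median of 0.75. SLC7A11, the cystine transporter, rose from 158, 67.4 and 65.1 to 750.0, 2094 and 504 (3.37 ± 0.80, adjusted p = 0.0174). It was already 82.1, 1736 and 379 at time point 2, and was not called against that time point (1.29, limma adjusted p = 0.269). ATF3, a stress-induced transcription factor in both lists, rose from 138, 37.5 and 44.3 to 274, 1777 and 695 (3.48 ± 1.12, adjusted p = 0.0497). SLC7A5, a large neutral amino acid transporter, rose by 0.62 ± 0.18 (adjusted p = 0.0343), and VLDLR, a lipoprotein receptor, by 1.90 ± 0.54 (adjusted p = 0.0319). VLDLR was 47.3, 289 and 66.3 at time point 2, and was not called against that time point either (0.78, adjusted p = 0.318). NR4A2, DUSP5, ATF3 and SLC7A5 were called against it (0.00434 to 0.0333). At time point 8, R9 had the highest value of each of these 6 genes. Without that library their adjusted p was 0.078 (SLC7A11) to 0.19 (ATF3). IER5 was called too (adjusted p = 0.0399; 0.189 without R9 at time point 8), although its groups overlapped (658 in R8 at time point 1, 627 in R10 at time point 8).

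Antigen presentation genes had 4 of 16 higher and 0 lower, with a median of 0.59. HLA-C, a classical class I heavy chain, rose from 96.7, 80.9 and 72.5 to 253, 166 and 225 (1.34 ± 0.20, adjusted p = 0.00288). HLA-B rose from 1.97, 1.78 and 2.14 to 60.1, 7.63 and 14.4 (2.76 ± 0.74, adjusted p = 0.0264). With a pseudocount of 10, HLA-B differed by 1.38 and missed the threshold (0.0566). HLA genes share sequence, and reads could be split between them in ways the counting does not show. ERAP2, which trims peptides for class I, rose from 23.6, 19.0 and 15.6 to 166, 34.5 and 53.2, and PSMB8, an immunoproteasome subunit, from 21, 18.5 and 8.61 to 88.7, 49.2 and 31.4. R8 was the highest lineage for all 4 at time point 8. When R9 at time point 8 was left out, HLA-C (0.0134) and ERAP2 (0.0358) stayed called, and HLA-B (0.0515) and PSMB8 (0.115) did not. Without R8 at time point 1, HLA-C (0.00488) stayed called and ERAP2 (0.0504), HLA-B (0.076) and PSMB8 (0.0899) missed. HLA-B (0.0514) and PSMB8 (0.106) also missed with no lineage block, and ERAP2 with time point 2 in place of time point 1 (0.0631).

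Interferon-stimulated genes had 4 of 22 higher and 0 lower, with a median of 0.57. BST2, the antiviral membrane protein tetherin, rose from 10.1, 21.1 and 29.3 to 137, 95.7 and 64.6 (2.29 ± 0.53, adjusted p = 0.0159). ISG15, a ubiquitin-like modifier, rose from 44.4, 28.9 and 19.7 to 78.2, 50.4 and 98.7 (1.28 ± 0.38, adjusted p = 0.036). IFIT3 was also called (1.01 ± 0.31, adjusted p = 0.043). Without R9 at time point 8, ISG15 (0.0471) stayed called, and BST2 (0.0577) and IFIT3 (0.144, and 0.111 without R8 at time point 1) did not. With time point 2 in place of time point 1, ISG15 (0.163) and IFIT3 (0.106) were not called and BST2 (0.0137) was. At time point 9 against 2 the list had 2 calls, and ISG15 differed by 0.19.

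Axon guidance genes, many of which guide growth cones or migrating cells through semaphorin, ephrin, netrin and slit signals, had 5 of 25 higher and 0 lower, with a median of 1.00. The ligand SEMA3D rose from 76.1, 41.0 and 43.6 to 316, 2600 and 317 (3.61 ± 0.94, adjusted p = 0.024). The co-receptor NRP1 rose from 48.4, 19.0 and 31.5 to 139.7, 117 and 163 (2.14 ± 0.55, adjusted p = 0.0237), and the semaphorin receptor PLXNA2 from 7.48, 1.19 and 0.0144 to 29, 8.71 and 24.8. The netrin receptor UNC5C was called higher with overlapping groups, since R8 at time point 1 (8.85) lay above R9 at time point 8 (6.62). With R9 at time point 8 left out, UNC5C (0.034) stayed called and SEMA3D (0.119), NRP1 (0.092) and PLXNA2 (0.0613) did not. UNC5C missed with no lineage block (0.0751), and PLXNA2 with a pseudocount of 10 (0.0634). Neural and neuroendocrine genes had 3 of 18 higher and 0 lower, with a median of 0.49. UCHL1, a neuronal ubiquitin hydrolase, rose from 808, 316 and 313 to 3123, 2858 and 1403 (2.43 ± 0.47, adjusted p = 0.00822). SYT1, a synaptic vesicle calcium sensor, rose from 41.5, 63.9 and 56.5 to 534, 1973 and 148, and L1CAM, a neural adhesion molecule, from 17.2, 3.44 and 2.14 to 309, 247 and 25.3. Of these 3, UCHL1 stayed called without R9 at time point 8 (0.036), and SYT1 (0.0877) and L1CAM (0.0862) did not.

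Receptor tyrosine kinases and their ligands had 5 of 28 higher and 1 lower, with a median of 0.37. Beside EGFR, FLT1, the VEGF receptor 1, rose from 5.00, 0.0167 and 1.62 to 102, 9.83 and 19.0 (3.48 ± 0.59, adjusted p = 0.00453). VEGFA, its ligand, rose from 173, 149 and 157 to 604, 1073 and 320 (1.89 ± 0.49, adjusted p = 0.0242). IGF2, a growth factor, rose from 0.773, 0.645 and 3.77 to 64.5, 63.8 and 4.55, with R10 almost level. IGF1R, the receptor on which Ewing cells are known to depend, was 3233, 3774 and 3524 at time point 1 and 2586, 2797 and 2716 at time point 8. The groups did not overlap, but its difference of -0.38 ± 0.14 did not pass (adjusted p = 0.0788), and it was called lower at time point 9 against 2 (-0.55, adjusted p = 0.0183). WNT pathway genes had 2 of 21 higher and 0 lower, the receptor ROR2 and the ligand WNT5B. When R9 at time point 8 was left out, FLT1 (0.0191) and EGFR (0.0455) stayed called, while VEGFA (0.106), IGF2 (0.157), ROR2 (0.0671) and WNT5B (0.0658) did not. Without R8 at time point 1, EGFR (0.0719), IGF2 (0.0971), ROR2 (0.057) and WNT5B (0.0881) missed. With a pseudocount of 10, EGFR (0.0605), IGF2 (0.0925) and ROR2 (0.15) missed, and FLT1 differed by 1.73. With no lineage block, FLT1 (0.0634), EGFR (0.0647) and ROR2 (0.0541) missed. With time point 2 in place of time point 1, VEGFA (0.423), IGF2 (0.622) and WNT5B (0.0558) were not called. EGFR (0.0171), FLT1 (0.00266) and ROR2 (0.0135) were. At time point 2, R9 was already at 1106 for VEGFA and 61.4 for IGF2.

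p53 targets showed how far the lineages differed. Of 27 tested, 1 was called higher and 0 lower, below the share of all genes tested, yet the median was 0.63. The lineage medians were -0.39 in R8, 1.68 in R9 and 0.63 in R10. CDKN1A itself did not pass (3.84 ± 1.27, adjusted p = 0.0552), and R8 began at 1229 and ended at 935. It passed without R8 at time point 1 (5.61, adjusted p = 0.0103) and, narrowly, with no lineage block (0.0479), and did not pass without R9 at time point 8 (2.66, adjusted p = 0.241). It was 62.1 to 92.7 in all 3 lineages at time point 2, and 9436 in R9 at time point 9 and 6010 in R10 at time point 10, against 235 in R8 at time point 10. FAS, a death receptor, was the member called, and rose from 92.6, 86.4 and 69.8 to 312, 1708 and 400 (2.84 ± 0.69, adjusted p = 0.0189; 0.094 without R9 at time point 8). MDM2, the ubiquitin ligase that degrades p53, was 2138, 2074 and 2093 at time point 1 and 2535, 4120 and 2024 at time point 8 (adjusted p = 0.137).

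Cell cycle genes were read by phase. Of 26 G2/M and mitosis genes, 3 were called higher and 0 lower, with a median of 0.60 and 20 of the 26 higher in all 3 lineages, against 21.7% of all genes tested. AURKA, a mitotic kinase, rose from 461, 302 and 304 to 828, 944 and 719 (1.24 ± 0.32, adjusted p = 0.022). CDC20, an activator of the anaphase-promoting complex, rose by 0.90 ± 0.26 (adjusted p = 0.0337) and HMMR, a spindle protein, by 1.26 ± 0.38 (adjusted p = 0.0413). Without R9 at time point 8 all 3 missed the threshold (0.0878, 0.102 and 0.173), and HMMR missed without R8 at time point 1 too (0.0503). At time point 9 against 2, 11 of the 26 were called higher. MKI67, a proliferation marker, was 10270, 6658 and 6674 at time point 1 and 8990, 11618 and 10812 at time point 8, so R8 went the other way (0.44 ± 0.37, adjusted p = 0.439). TOP2A, a topoisomerase of dividing cells, was 7394, 5330 and 5549, then 8382, 8704 and 8106 (adjusted p = 0.191). None of 27 G1/S and replication genes passed in either direction (limma, 0 at an unadjusted p under 0.05), with a median of -0.01 that was 0.52 at time point 9 against 2, where 1 was called higher. None of 20 histone genes passed (1 at an unadjusted p under 0.05), with a median of 0.28. Homologous recombination and Fanconi anaemia genes had 0 of 29 higher and 1 lower, PALB2, the partner of BRCA2, at -0.49 ± 0.13 (adjusted p = 0.0293). PALB2 missed without R9 at time point 8 (0.104) and with time point 2 in place of time point 1 (0.0884). SLFN11, a gene whose loss is known to accompany resistance to DNA-damaging drugs, was 3551, 4992 and 5128 at time point 1 and 3866, 5081 and 3542 at time point 8 (-0.13 ± 0.20, adjusted p = 0.687).

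Mitochondrially encoded genes, which supply core subunits of the respiratory chain, had 0 of 12 higher and 3 lower, with a median of -0.97. COX1, a subunit of cytochrome c oxidase, fell from 114407, 90343 and 90343 to 41936, 41936 and 44969 (-1.19 ± 0.27, adjusted p = 0.0146). It was at 90343 or above in every library of time points 1 and 2, at 59518 or below in every later DMSO library, and at 44969 in the parental library. Values this high are set by rank alone under quantile normalization, which is why libraries share them exactly. COX3 fell from 41936, 28457 and 28457 to 16705, 13306 and 20090, and CYTB from 30047, 16532 and 16705 to 10172, 6811 and 12040. COX1 stayed called without R9 at time point 8 (0.0462) and without R8 at time point 1 (0.0337), and COX3 and CYTB stayed called in neither (0.1 to 0.182). At time point 9 against 2, all 12 were called lower, with a median of -2.51. Lineage medians at time point 8 were -1.74 in R8, -1.11 in R9 and -0.15 in R10.

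Respiratory chain genes encoded in the nucleus went the other way: 6 of 30 were called higher and 0 lower, with a median of 0.25, and 19 of 30 were higher in all 3 lineages (21.7% of all genes tested). UQCRB, a complex III subunit, rose from 756, 885 and 1008 to 1322, 1223 and 1737 (0.68 ± 0.17, adjusted p = 0.0212). SDHB of complex II rose by 0.64 ± 0.17 (adjusted p = 0.0252), COX7A2 by 0.63 ± 0.18 (adjusted p = 0.0306) and NDUFB3 by 0.60 ± 0.19 (adjusted p = 0.0455). UQCRB stayed called without R9 at time point 8 (0.0322) and the other 3 did not (0.0754 to 0.109). With time point 2 in place of time point 1, UQCRB (0.29, adjusted p = 0.237) and COX7A2 (0.0912) were not called, and SDHB (0.0274) and NDUFB3 (0.031) were. Without R8 at time point 1, UQCRB and NDUFB3 missed (both 0.0586). At time point 9 against 2 the list had 2 calls and a median of 0.09.

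Hypoxia and glycolysis genes had 4 of 26 higher and 0 lower. P4HA2, a collagen prolyl hydroxylase, rose from 2.52, 1.78 and 0.590 to 81.9, 14.9 and 69.0, while ALDOA, an aldolase of glycolysis, rose by 0.82 ± 0.26 (adjusted p = 0.0478) and BNIP3, a mitophagy receptor, by 0.40 ± 0.13 (adjusted p = 0.0472). NRF2 target antioxidant genes had 4 of 17 higher and 1 lower. HMOX1, heme oxygenase 1, rose from 149, 63.9 and 38.7 to 247, 392 and 291 (2.07 ± 0.45, adjusted p = 0.0127). AKR1C1, an aldo-keto reductase, fell from 50.8, 65.6 and 71.2 to 8.16, 32.2 and 17.8 (-1.81 ± 0.34, adjusted p = 0.00689). Among drug transporters, 1 of 16 was higher and 2 were lower. ABCC5, an efflux pump for nucleotide analogues, fell from 1678, 2111 and 2047 to 737, 662 and 608 (-1.54 ± 0.29, adjusted p = 0.00722), and SLC22A5, the carnitine transporter, fell by 1.23 on the log2 scale (adjusted p = 0.0387). SLCO4A1, an organic anion transporter, rose from 17.9, 11.6 and 10.5 to 70.9, 670 and 76.5. With R9 at time point 8 left out, ABCC5 (0.0263) and AKR1C1 (0.00789) stayed called, while HMOX1 (0.0532), P4HA2 (0.0537), ALDOA (0.101), BNIP3 (0.108), SLC22A5 (0.167) and SLCO4A1 (0.17) did not. Without R8 at time point 1, BNIP3 (0.0773) and SLC22A5 (0.0559) missed. P4HA2 missed with a pseudocount of 10 (0.0648), and SLC22A5 with no lineage block (0.062). With time point 2 in place of time point 1, P4HA2 (0.257), SLC22A5 (0.131) and BNIP3 (0.062) were not called. ALDOA, HMOX1, AKR1C1, ABCC5 and SLCO4A1 were (0.00182 to 0.0152). P4HA2 was already 83.4 in R9 at time point 2.

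Ribosomal protein genes had 2 of 36 higher and 0 lower, close to the 5.94% of all genes tested, and lineage medians of 0.65 in R8, -0.16 in R9 and -0.10 in R10. Ribosome biogenesis and MYC target genes had 2 of 28 higher, ODC1 and MYCL, and 2 lower. ODC1 was lost without R8 at time point 1 (0.0622), and MYCL without that library (0.0791) and without R9 at time point 8 (0.0841). MYCL also missed with time point 2 in place of time point 1 (0.139). MAT2A, which makes S-adenosylmethionine, fell from 2965, 4146 and 3994 to 2018, 1228 and 1657 (-1.19 ± 0.24, adjusted p = 0.00949; 0.0451 without R9 at time point 8). MYC was 5621, 8266 and 7902 at time point 1 and 6515, 7925 and 10486 at time point 8 (0.19 ± 0.20, adjusted p = 0.545), and MYCN was at most 27.5 in the 6 libraries. None of 25 cholesterol biosynthesis genes (0 at an unadjusted p under 0.05) and none of 21 HOX cluster genes (4 unadjusted) passed in either direction. Fatty acid synthesis genes had 0 of 13 higher and 2 lower (7.98% of all genes tested), the regulator SREBF1 (1866, 2115 and 2114 to 514, 1223 and 1450) and ACACA, the enzyme of the first committed step. Neither stayed called without R9 at time point 8 (0.0576 and 0.0509) or without R8 at time point 1 (0.0784 and 0.057). With time point 2 in place of time point 1, ACACA missed (0.11) and SREBF1 was called (0.0104). Amino-acyl tRNA synthetases had 2 of 14 higher (5.94% of all genes tested), TARS1 and YARS1, both lost without R9 at time point 8 (0.101 and 0.216). Both also missed with time point 2 in place of time point 1 (0.201 and 0.3). Lysosome and autophagy genes had 3 of 23 higher and heat shock genes 1 of 15, HSPB1, a small heat shock protein that missed without R9 at time point 8 (0.0924), with 0 lower in each of these 3 lists.

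**Figure D4:**
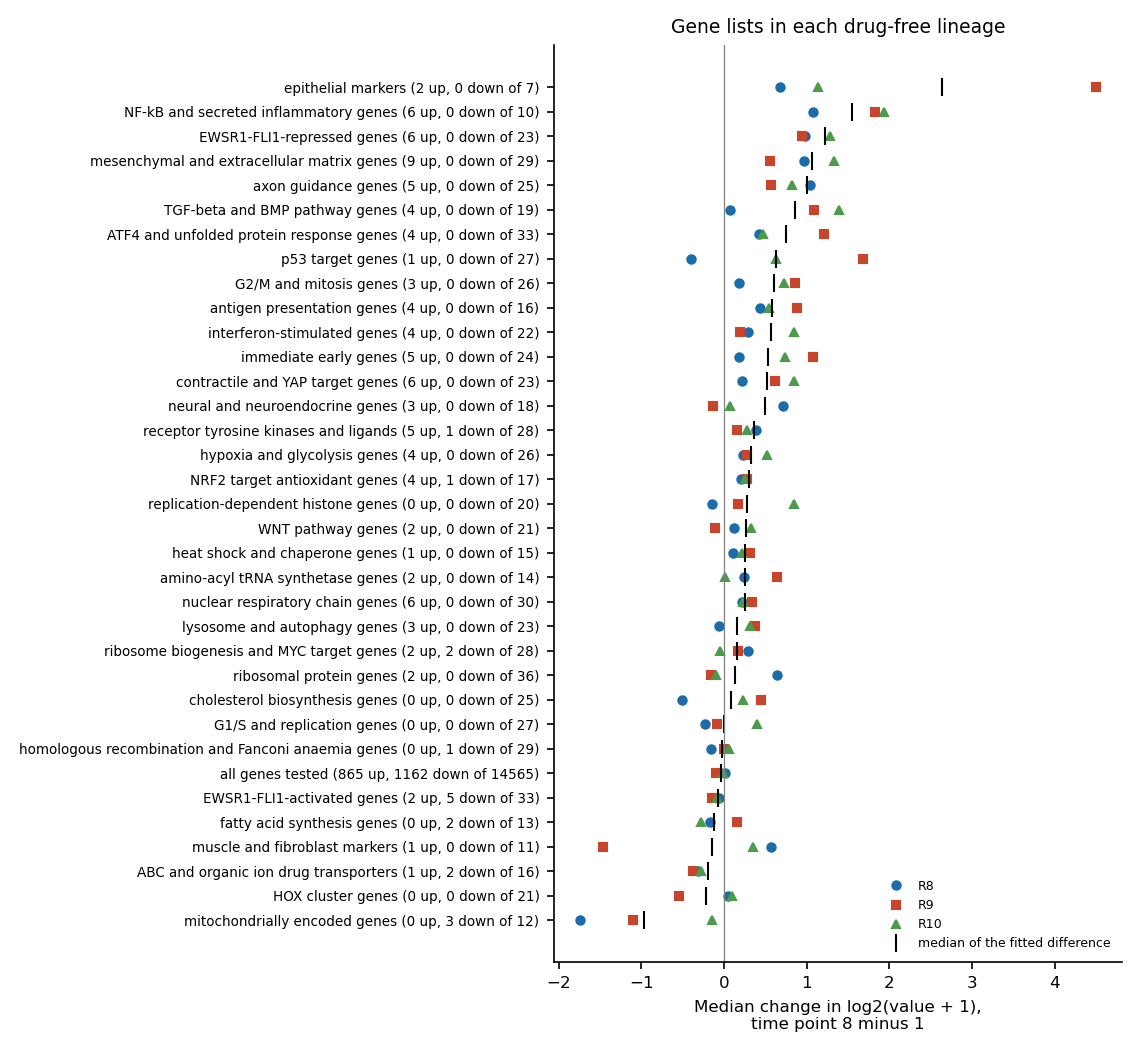
Median change of log2(value + 1) from time point 1 to 8 over the tested members of each gene list, in lineages R8, R9 and R10 (symbols) and over the fitted differences (black tick), with the number of members called higher and lower beside each name. The row for all genes tested lies at -0.04, mesenchymal and extracellular matrix genes at 1.06 and mitochondrially encoded genes at -0.97; R9 is furthest from R8 and R10 for epithelial markers.

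Markers of other cell types were read beside these groups. Of 7 tested epithelial markers, 2 were called higher and 0 lower, with lineage medians of 0.68 in R8, 4.5 in R9 and 1.13 in R10. KRT8, a keratin of simple epithelia, rose from 4.37, 4.64 and 5.22 to 99.6, 136 and 30.9 (3.73 ± 0.96, adjusted p = 0.0231), and ESRP1, an epithelial splicing regulator, from 8.16, 1.19 and 4.27 to 182, 48.7 and 11.6. Both missed without R9 at time point 8 (0.102 and 0.1), and KRT8 also without R8 at time point 1 (0.0501). With a pseudocount of 10, ESRP1 missed too (0.058). ESRP1 was already 47.9 in R9 at time point 2. With time point 2 in place of time point 1, ESRP1 was not called (0.196) and KRT8 was (0.0242). The summed value of the 15 epithelial markers was 98.6 to 191 at time point 1 and 557 in R8, 1543 in R9 and 312 in R10 at time point 8. KRT18 made up 876 of the sum in R9, while EPCAM, CDH1, KRT5 and GRHL2 were at 1.19 or below in all 6 libraries. The 15 blood cell markers summed to 184 to 221 at time point 1 and to 166, 856 and 208 at time point 8, with CD3E at the floor in all 6. In R9, CD79A went from 157 to 666 and ITGAM from the floor to 82.1, and CORO1A went from 10.1, 7.98 and 13.6 to 27.8, 47.0 and 20.7. None of the 3 tested members was called (1 at an unadjusted p under 0.05). The 16 muscle and fibroblast markers summed to 8317 to 12137 at time point 1 and to 14839, 6098 and 10825 at time point 8. MYOD1 was at the floor in all 6, and COL1A1, which rose, was the only member called of 11 tested. Lineage medians of the 11 were 0.57 in R8, -1.47 in R9 and 0.35 in R10. DCN fell from 997, 988 and 1023 to 707, 100 and 360. COL3A1 went from 4395 to 914 in R9 but from 4384 to 5072 in R10. The 10 endothelial markers summed to 76.3 to 112 and to 58.9 to 106, with VWF at the floor in all 6 and neither of the tested members called (1 unadjusted). The epithelial sum was thus higher at time point 8 in each lineage, by the most in R9, while the blood sum rose in R9 alone. The part of these markers in the results was not tested.

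The change in the DMSO lineages was set against that of the 5 treated lineages sampled at both time points (R2, R3, R4, R6 and R7). Here the difference of the change was tested on the differences within each lineage, since the DMSO and treated libraries had different totals and may have been normalized separately. No gene of 14565 passed (0%, limma, smallest adjusted p = 0.689), and 967 had an unadjusted p under 0.05. Without R8, 203 genes passed (136 with a larger and 67 with a smaller difference in DMSO), so the absence of calls rested on that lineage. With 3 lineages against 5, this does not show that the arms changed alike. The 865 genes higher in DMSO had a median change of 0.91 in the treated lineages and the 1162 lower genes one of -0.81, beside -0.02 for all genes tested. All 108 named genes called in DMSO had a treated change of the same sign. ANXA5 differed by 6.00 in DMSO and 5.83 in the treated lineages, CAV1 by 3.58 and 3.98, TGFBR2 by 1.23 and 1.25, ZMAT1 by -2.62 and -3.01, and COX1 by -1.19 and -1.45. Other called genes were less alike in size. GDF10 (5.56 and 2.67), ATF3 (3.48 and 1.31) and FAS (2.84 and 1.09) rose more in DMSO. COL1A1 (1.99 and 3.10) and ROR2 (3.44 and 5.88) rose more in the treated lineages.

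The 3 genes with the smallest p for a difference between the arms in each direction did not pass either (adjusted p = 0.689 for each). SRCIN1, a SRC kinase inhibitor protein, was 94.5, 107 and 88.3 at time point 1 and 96.8, 145 and 94.1 at time point 8 in DMSO. In the treated lineages it was 97.1 to 132 at time point 1 and 28.6 to 49.4 at time point 8, a change of -1.61, so the groups did not overlap. LRRC32, a cell surface protein that holds latent TGF-beta, was 0.0144 to 8.16 and then 0.838 to 18.1 in DMSO, against 0.0144 to 1.18 and then 23.3 to 70.1 in the treated lineages. COL6A3, a chain of type VI collagen, changed by 1.40 in DMSO and by 4.25 in the treated lineages. COL18A1 changed by 0.47 and 1.62, NEU4 by 0.67 and -1.43, and CLDN16 by -0.33 and -1.37. CDKN1A changed by 3.84 in DMSO and by -0.11 in the treated lineages, with all of the DMSO rise in R9 and R10.

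**Figure D5:**
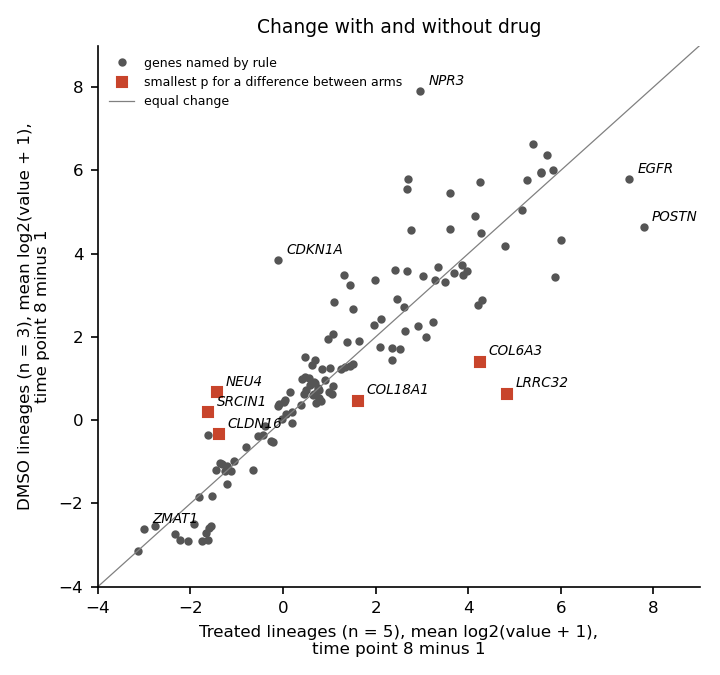
Mean change of log2(value + 1) from time point 1 to 8 in the 3 DMSO lineages against the 5 treated lineages for the genes named by rule (circles) and the 3 genes with the smallest p in each direction for a difference between the arms (squares); the line marks equal change. Many genes lie near the line, but some lie away from it on either side. CDKN1A has 3.84 in DMSO and -0.11 in the treated lineages, GDF10 5.56 and 2.67, and ROR2 3.44 and 5.88. No difference between arms passed the threshold.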

How the data were processed

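CHLA-9 cultures were profiled by RNA-seq. STAR did the alignment and counting, per the labels, and featureCounts and the build GRCh38 are named in the submitters' processing notes. Values deposited by the authors are a signal, counts after quantile normalization, for 36233 genes in 73 columns. The normalization steps are not given in the sources used here, and depth is unknown. Log2(value + 1) of 14565 genes (mean of at least 10) was fitted with limma 3.58.1 (trend) in R 4.3.3 (data.table, version 1.17.8), with a mean per time point and the lineage as a block over 23 DMSO libraries, and Benjamini-Hochberg adjustment at 0.05. Lineages pair the samples by the labels, as repeated samplings of 1 culture; deviations of the same lineage at time points 1 and 8 correlated at -0.129 to 0.00256. The members and the 36 lists (752 of 838 genes tested) were chosen with earlier results of these data known. Named were the 12 largest rises and falls, up to 4 called members per list (or the one with the smallest p), 13 fixed genes, for the arms the 3 smallest p-values in each direction, and per lineage the 5 largest changes either way. Other members of a list that were called are named without this rule. A few items that this rule names are not reported here. Gene positions came from GENCODE v29. On simulated data of this design, a log2 change of 1 was found for 56% of changed genes and of 2 for 69%. Plots used matplotlib 3.10.9 and pandas 2.3.3 in Python 3.11.15.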

Additional observations from a re-analysis of the deposited data

Results flagged for a closer look

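SRCIN1 had changes of opposite sign in the 2 arms between time points 1 and 8. All 3 DMSO changes were above 0, but R8 and R10 were almost level (0.03 and 0.09 on the log2 scale) and R9 rose by 0.43. All 5 treated lineages fell (by 0.96 to 2.17), a difference of 1.80 between the arms. The test of that difference across all genes did not pass (limma, adjusted p = 0.689).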

How the results depend on the processing

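The count of 2027 genes between time points 8 and 1 stayed within 1.5 times under no lineage block (1749), a pseudocount of 10, a mean of at least 50, a common median, without R8 at time point 1, with time point 2 in place of time point 1 (2663) and without 4 late libraries of R9 and R10. It was 2 from the 6 libraries alone with the block (3328 at an unadjusted p under 0.05), 3164 in a fit of 72 libraries, 771 with no filter, 4562 with array weights (a fit that stopped before convergence), 661 without R9 at time point 8, and 4 to 867 when 1 lineage was left out. The count between time points 9 and 2 was 0 from its 6 libraries alone (limma, 3536 at an unadjusted p under 0.05), 3650 with 72 libraries, 1237 with no filter, 6935 with array weights, 42 without R9 and R10 at time point 9, and 166 to 1660 when 1 lineage was left out. Between arms, 3 genes passed with no filter and 203 without R8. The mean distance within a lineage was 0.803 with a pseudocount of 10. Of the 108 named genes that were called, 14 lost their call with a pseudocount of 10 and 15 with no lineage block (limma). Of the called genes, RIDA turned (0.59 to -0.03) with time point 2 in place of 1, and no other did in these settings. The other turns were of genes not called between time points 8 and 1. MYC was -0.0215 with array weights and -0.0142 without R8 at time point 1, MYCN was 0.0751 without R8 at time point 1, and CCND1 was 0.0294 with time point 2 in place of 1. When 1 lineage was left out, CCND1 ranged from -0.219 to 0.0464, MYCN from -0.917 to 0.25, SLFN11 from -0.254 to 0.074 and EWSR1 from -0.0256 to 0.0700. Alternatives that leave out a single library, R9 and R10 at time point 9 together, or replace time point 1 were chosen after the data were seen.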

Other observations

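Genes with the largest change in any 1 lineage are described here with no test. R9 had CTNND2, a neural catenin, at the floor at time point 1 and at 3009 at time point 8, where R8 had 0.962 and R10 43.3. SCN2A, a neuronal sodium channel, went from 80.3 to 0.314 in R9 and from 77.0 to 43.3 in R8. R8 had the complement component C3 at the floor at time point 1 and at 115 at time point 8, while in R9 it went from 7.46 to 124. MIR34AHG, the host gene of a p53-induced microRNA, went from 538 to 19.1 in R8 and from 108 to 256 in R9. FAM83G was 37.8 and then at the floor in R8, but 25.5 and then 811 in R9. In R10, HTRA1, a secreted serine protease, went from 2.14 to 413, and it went from 67.2 to 409.9 in R8 and from 2.34 to 40.3 in R9. VEGFD, a lymphatic growth factor, went from 38.2 to 0.623 in R10, while in R8 it went from 7.48 to 46.5.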
